A study of Mus musculus with 24 samples.

Results

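The transcripts of the mitochondrial genome were examined in LPs, lymphoid progenitor lines from mouse fetal liver, and in the Phase 1 cells made from them by Notch stimulation. The members were chosen by name: every gene whose symbol starts with mt- in the deposited value files was taken, which gave 37 of 55487 genes. They comprise 13 mRNA genes, 2 rRNA genes and 22 tRNA genes. All groups share the same parent line, which is Ebf1-deficient, carries Cas9 from a Rosa26 knock-in and was grown with SCF, Flt3L and IL-7 on OP9 stroma, or on OP9-DLL4 for Phase 1 cells. Each culture received a retrovirus with pooled sgRNAs and the marker hNGFR, and hNGFR+CD45+ cells were sorted 5 days after transduction, so a group is a mixture of edited cells. Experiment 1 had LPs and Phase 1 cells that carried sgControl, which targets luciferase, or sgCbfb. Experiment 2 had LPs alone, with sgControl, sgCbfb, sgCTCF (against Ctcf) or sgMed12. There were 3 libraries in each of the 8 groups, made with QuantSeq, which reads the 3′ ends of RNAs primed with oligo(dT). The methods of the study call these replicates biologically independent, and p-values rest on the spread between them. For each gene that spread was estimated over all 4 groups of an experiment together, not from the compared groups alone.

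The mitochondrial genome is a small circle that is transcribed from both strands as long precursors, which are cut at the tRNAs that punctuate them into mRNAs, rRNAs and tRNAs. Its mRNAs encode subunits of the respiratory chain and of ATP synthase, while the other subunits, the mitochondrial RNA polymerase Polrmt, its cofactors Tfam and Tfb2m and the proteins that stabilise the RNAs are encoded in the nucleus. Most genes lie on the forward strand of the reference, and mt-Nd6 is the mRNA gene of the reverse strand. Cbfb is the partner of the RUNX factors, CTCF organises chromatin loops, and Med12 belongs to the kinase module of Mediator.

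The 3′ ends are shown for the mRNAs on which the results below turn, because QuantSeq reads lie near the ends primed with oligo(dT). Capitals mark the stop codon as annotated, or its first base where the annotation ends in an incomplete codon that polyadenylation completes. The last 2 bases of mt-Nd1 and of mt-Nd2 also belong to the tRNA genes mt-Ti and mt-Tw of the same strand. Where these messages end was not tested. Positions are on GRCm38 and the sequences run 5′ to 3′ along the message, from the GENCODE M21 transcripts.
mt-Nd1 (chrM:3678-3707, forward strand): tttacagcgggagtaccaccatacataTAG
mt-Nd2 (chrM:4922-4951, forward strand): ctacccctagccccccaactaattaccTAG
mt-Nd4 (chrM:11515-11544, forward strand): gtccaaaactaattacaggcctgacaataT
mt-Cytb (chrM:15259-15288, forward strand): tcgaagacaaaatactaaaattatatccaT

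The genes mt-Nd5 and mt-Nd6 meet tail to tail on opposite strands. Their last 14 bases, in capitals, are the reverse complement of each other, so reads in the overlap can be assigned to one of them only where strand is used. The counting step is not given in the sources used here. Whether reads on mt-Nd6 and on the tRNA genes came from finished RNAs or from the longer precursors was not tested.
mt-Nd5 (chrM:13536-13565, forward strand): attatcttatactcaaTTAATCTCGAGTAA
mt-Nd6 (chrM:13552-13581, reverse strand): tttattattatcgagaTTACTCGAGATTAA

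Values are in CPM, a gene's reads as a share of all reads on genes, scaled so that every library has the same total. There were 1363263 to 1743319 reads on genes per library in experiment 1 and 3354483 to 4326782 in experiment 2. The targeted gene fell in 3 of its 5 comparisons. Cbfb was 40.2 ± 5.2 CPM in sgCbfb LPs of experiment 1 against 86.5 ± 9.3 CPM in sgControl LPs (means ± SD of 3 libraries, Benjamini-Hochberg adjusted p = 0.0055 from limma). In experiment 2 it was 48.4 ± 6.9 against 114 ± 8 CPM (limma adjusted p = 4.3e-06), and Ctcf was 306 ± 30 against 391 ± 31 CPM (limma adjusted p = 0.021). Cbfb in Phase 1 cells and Med12 did not pass the test. Edits by an sgRNA need not lower a 3′ read count, so a target that did not fall neither checks a label nor goes against it. The T-cell and Notch target list of 8 genes summed to between 448 and 1019 CPM in Phase 1 libraries and between 28.5 and 82.8 CPM in LP libraries. All 7 haematopoietic markers had reads in every group and summed to 1034 to 2229 CPM. The 3′ reads of Ebf1 were still present, and Cd79a was at 0. Libraries of 2 groups stood apart from their own group over all genes. In sgMed12 the chi-square per degree of freedom between libraries was 17.6 for 1 and 2, 9.43 for 2 and 3 and 4.49 for 1 and 3, so library 2 differed most. In Phase 1 sgControl it was 10.7 and 8.75 for library 3 and 3.51 between the other libraries, and library 3 also had the highest share of the nuclear rRNA gene CT010467.1, 12.9%. In the other 6 groups the values were between 2.46 and 5.01.

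Mitochondrial transcripts took 7.02% to 7.87% of the reads on genes in the 12 libraries of experiment 1. In experiment 2 the shares were 7.5%, 8.03% and 7.94% with sgControl, 6.76%, 7.73% and 7.73% with sgCbfb, 8.15%, 8.05% and 8.11% with sgCTCF, and 13.7%, 8.44% and 11.2% with sgMed12. The Wilson 95% intervals of these shares are 0.051 to 0.088 percentage points wide and cover counting error only. The 3 sgMed12 libraries lay above all others of their experiment, and they also differed most among themselves. Without library 1, the mean sgMed12 share was 1.99 percentage points above sgControl, and with it 3.27. The share is a description with no test. In these bulk libraries, more mitochondrial RNA per cell and less of the other RNA cannot be told apart.

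The 2 rRNAs made up most of this. In sgControl LPs of experiment 2, mt-Rnr2 (the large-subunit rRNA) stood at 40474 ± 2574 CPM and mt-Rnr1 (the small-subunit rRNA) at 20421 ± 1365 CPM (SD, n = 3), which were 51.7% and 26.1% of all mitochondrial reads. The mRNAs took 1.49% to 2.07% of the reads on genes in experiment 1 and 1.49% to 3.39% in experiment 2, and the 22 tRNAs took at most 0.0199%. Among mRNAs of the same libraries mt-Nd2, a subunit of complex I, was highest with 6131 ± 830 CPM, followed by mt-Nd1 with 3391 ± 119 and mt-Nd4 with 3180 ± 288 CPM, both of complex I too. The ranges of mt-Nd1 and mt-Nd4 overlapped. The complex III subunit mt-Cytb followed with 2097 ± 240 CPM, then mt-Co1, the catalytic subunit of complex IV, with 1250.0 ± 40 and mt-Nd5 with 1020.0 ± 19 CPM. At the low end stood mt-Nd6 with 85.8 ± 23.0 and mt-Nd3 with 13.8 ± 2.9 CPM. Divided by gene length, the level of mt-Nd2 was 5907 CPM per kb, that of mt-Nd5 559 and that of mt-Nd6 165 CPM per kb, although 3′ reads do not grow in number with length.

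**Figure D1:**
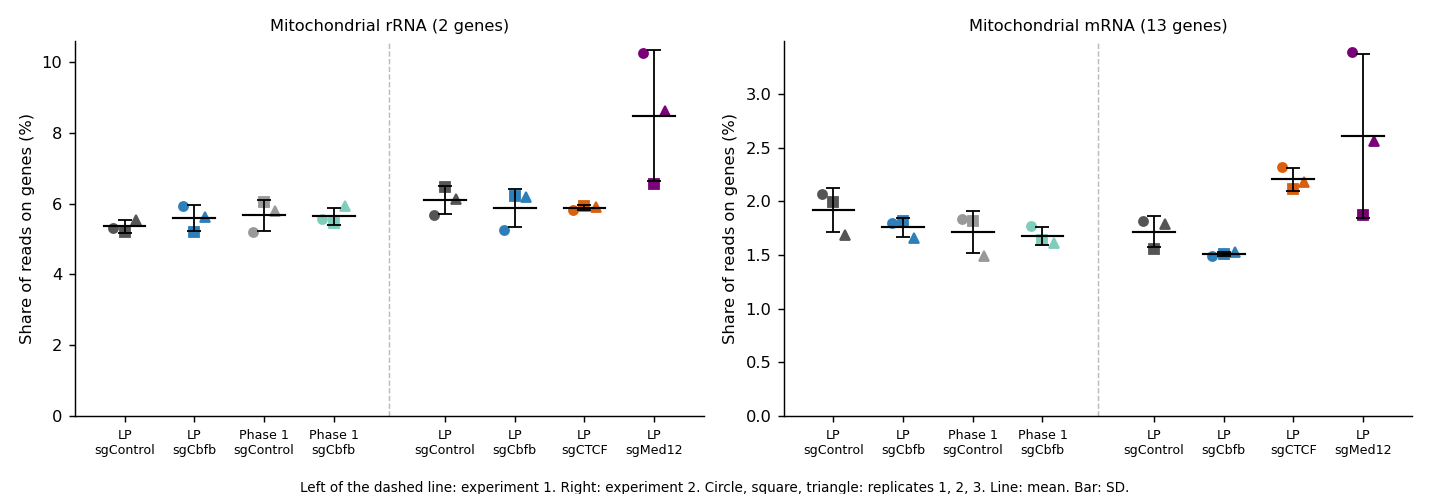
Share of the reads on genes (%) taken by the 2 mitochondrial rRNAs (left) and the 13 mitochondrial mRNAs (right) in each library of the 8 groups. Of the 13 mRNAs, 5 were listed at 0 in every library. Points are libraries, lines are means and bars are SDs (n = 3). The rRNA share is 6.57% to 10.3% with sgMed12 and at most 6.46% in the other libraries, and the mRNA share is 2.11% to 2.32% with sgCTCF against 1.55% to 1.81% with sgControl.

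A block of genes had no reads at all. In every one of the 24 libraries mt-Co2, mt-Atp8, mt-Atp6, mt-Co3 and mt-Nd4l were at 0, with 6 tRNAs: mt-Ts1, mt-Td, mt-Tk, mt-Tg, mt-Tn and mt-Th. With no read in a library of experiment 2, a level of up to 0.693 to 0.894 CPM cannot be told from 0. Among these genes are subunits of complex IV and of ATP synthase that every respiring mouse cell uses, so they are only said to be listed at 0. The genes at 0 lie next to each other: of the 11 members wholly inside chrM:6381-11042, 9 were at 0, and of the 26 others 2 were.

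That stretch has a near-identical copy in the nuclear genome. A run of 7 annotated pseudogenes at chr1:24611535-24616197 (4663 bases, reverse strand) is collinear with it. The pseudogene Gm28661 matched mt-Co2 at 681 of 681 bases, Gm10925 matched mt-Atp6 at 678 of 678, Gm28437 matched mt-Co3 at 783 of 783 and Gm10222 matched mt-Nd4l at 294 of 294. The pair below shows bases 754 to 783 of both.
mt-Co3: ctatacgtctccatttattgatgaggatct
Gm28437: ctatacgtctccatttattgatgaggatct

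Of the 75-base windows along each gene, 99.5% in mt-Co2, 99.5% in mt-Atp6, 99.9% in mt-Co3 and 98.7% in mt-Nd4l occur unchanged in a transcript from outside the mitochondrial genome. None did in mt-Nd1, mt-Cytb, mt-Nd6 or the 2 rRNAs. Nor did any in mt-Atp8, which is at 0 and lies in the stretch, but no annotated transcript covers its place in the nuclear copy. In mt-Nd4 the copy covers bases 1 to 876 of 1378, and none of the windows in its last 300 bases are copied. That gene had 2861 to 7507 CPM. In mt-Co1 all windows of the last 300 bases are copied, and the gene had 918 to 1899 CPM. The gene mt-Nd3 differs from its copy Gm28438 at 1 of 345 bases, T3C counted from the first base of the gene, and had 0 to 4.95 CPM in experiment 1 and 9.54 to 24.1 CPM in experiment 2. Its first 30 bases are shown with that base in capitals.
mt-Nd3: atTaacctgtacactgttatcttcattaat
Gm28438: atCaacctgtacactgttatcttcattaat

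The pseudogenes of this run had at most 4 reads in a library, so the missing reads are not found there. How reads with several hits were treated is not given in the sources used here, and its part in the zeros was not tested. The values of mt-Nd3, mt-Co1, mt-Nd4 and mt-Nd2, of whose last 300 bases 24.3% of windows are copied in Gm13339 on chromosome 2, are uncertain because they share sequence with nuclear genes. Among the tRNAs in the stretch mt-Tr had reads, at most 6 in a library.

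**Figure D2:**
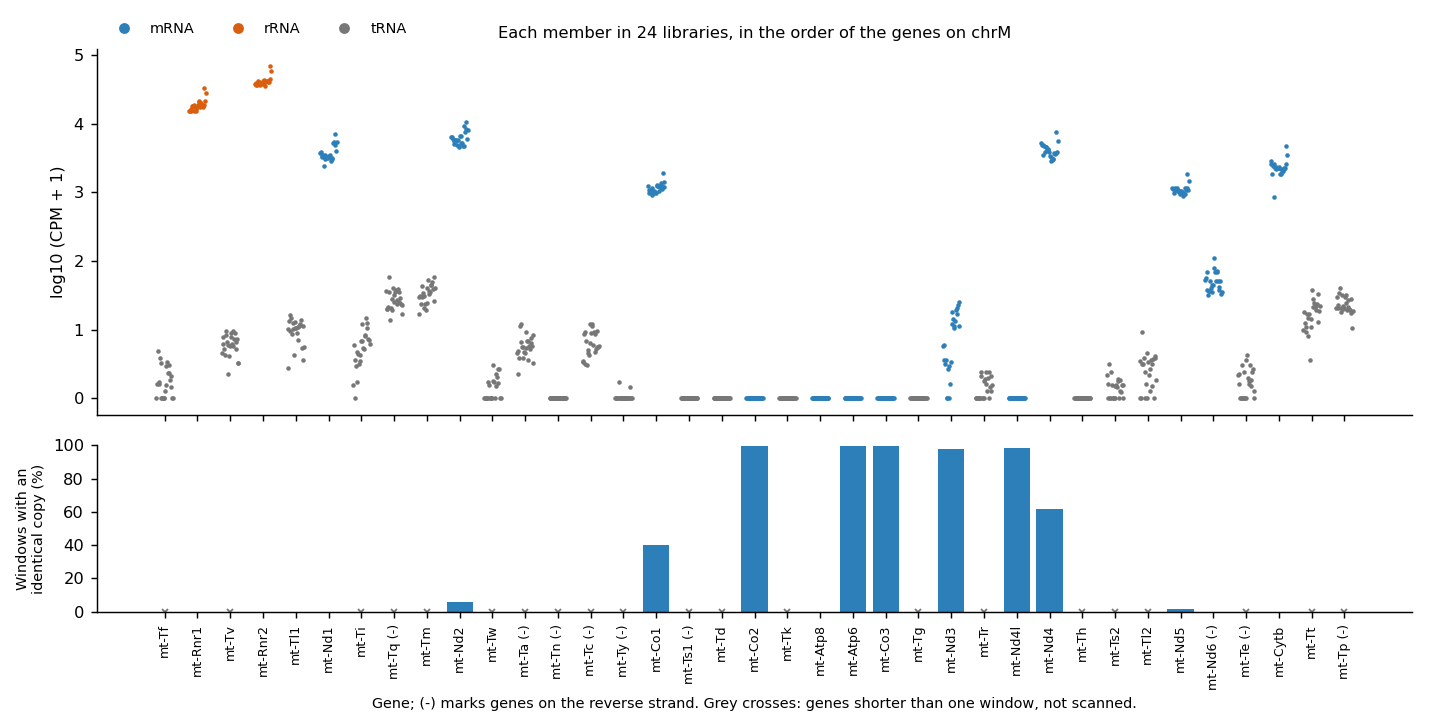
Upper panel: level of each of the 37 members in the 24 libraries, log10 (CPM + 1), in the order of the genes on chrM. Lower panel: percent of the 75-base windows of a gene that occur unchanged in a transcript outside the mitochondrial genome. Of the 5 mRNAs at 0 in all libraries, 4 have 98.7% to 99.9% copied windows and mt-Atp8 has none, and mt-Nd3 stands between them with low values.

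Tests were run with limma on log2 (CPM + 1) over all genes with at least 1 CPM in 3 libraries of an experiment. Of the members, 23 passed this filter in experiment 1 (8 mRNAs, 2 rRNAs and 13 tRNAs) and 24 in experiment 2 (8 mRNAs, 2 rRNAs and 14 tRNAs). Calls are at an adjusted p below 0.05 over all genes tested, 13239 and 13177. Fitted differences are on the log2 (CPM + 1) scale with their standard errors (SE).

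In experiment 2 the first question was whether loss of Cbfb, CTCF or Med12 in LPs moved these transcripts. With sgCbfb 0 of 24 members passed limma, against 12.5% of all genes called in either direction. At an unadjusted p below 0.05 there was 1 member, against 23.9% of all genes, and edgeR's quasi-likelihood test called 0 higher and 0 lower. The nearest was mt-Nd6, at 51.0, 69.7 and 67.5 CPM with sgCbfb and 78.1, 112 and 67.7 CPM with sgControl (-0.43, SE 0.18, limma adjusted p = 0.15). These values overlapped. The 10 mRNAs and rRNAs tested all had fitted differences below 0, from -0.43 to -0.03, and mt-Nd2 was 5156, 4794 and 4809 CPM against 6633, 5173 and 6587 CPM (-0.31, SE 0.16, limma adjusted p = 0.25), without overlap.

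With sgCTCF 1 member rose and 2 fell, against 6.13% of all genes called higher and 4.2% called lower. The member that rose was mt-Nd1. It stood at 3434, 3256 and 3483 CPM with sgControl and at 5318, 5416 and 4918 CPM with sgCTCF. Each sgCTCF library was above each control, and the fitted difference was 0.62 (SE 0.14, limma adjusted p = 0.0056). Its neighbour mt-Nd2 had 9341, 7480.4 and 8439 CPM with sgCTCF, again without overlap with sgControl, but missed the threshold (0.46, SE 0.16, limma adjusted p = 0.068). The other forward-strand mRNAs had smaller fitted differences, up to 0.23 for mt-Nd4 among the abundant ones. The values of mt-Cytb were 2299, 2186 and 2298 CPM with sgCTCF and 2272, 1824 and 2197 CPM with sgControl (0.11, SE 0.15, limma adjusted p = 0.71), and those of mt-Co1 were 1246 ± 112 and 1250.0 ± 40 CPM (-0.01, SE 0.12, limma adjusted p = 0.98). Neither rRNA passed.

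The balance among mRNAs in the sgCTCF libraries can be read as a ratio, which a library's depth cannot move. The ratio of mt-Nd1 to mt-Cytb was 2.31, 2.48 and 2.14 with sgCTCF, and 1.51, 1.79 and 1.58 with sgControl. It was 1.54 to 1.57 with sgCbfb and 1.52 to 1.55 with sgMed12, so the sgCTCF libraries lay above the other 9 of the experiment. Of the mRNA reads, mt-Nd1 took 22.6% to 25.6% with sgCTCF and 19.0% to 21% with sgControl, whereas mt-Cytb took 9.90% to 10.5% and 11.7% to 12.5%, and mt-Nd4 15.9% to 17.5% and 18.2% to 18.9%. These shares are descriptions with no test. The ratio has no such order in experiment 1, where 11 libraries were between 1.31 and 1.79 and the third sgControl library of Phase 1 cells was at 2.86.

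The members that fell with sgCTCF were mt-Nd6 and the cysteine tRNA mt-Tc, both of the reverse strand. The complex I subunit mt-Nd6 stood at 49.6, 37.0 and 40.9 CPM, and all 3 values were below the controls at 78.1, 112 and 67.7 CPM. The fitted difference was -0.97 (SE 0.18, limma adjusted p = 0.00083). By the thresholds of the study, which also ask for a more than 2-fold difference of means and a mean above 10 CPM, it was the 1 member called, against 0.622% of all genes called lower. The fold of means, 2.02, was next to that threshold and fell to 1.71 without sgControl library 2, 1.90 without sgCTCF library 2 and 1.98 without sgCTCF library 3, so this call was then lost. For mt-Tc the values were 3.76, 4.18 and 4.62 CPM against 7.91, 11.2 and 10.5 CPM (-1.06, SE 0.30, limma adjusted p = 0.021). They rest on at most 43 reads in a library, and the call was lost in 5 of 21 alternatives, among them without sgControl library 2 or 3 or sgCTCF library 1 or 2. The call of mt-Nd6 at an adjusted p below 0.05 was kept in all 21.

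With sgMed12 4 members rose and 2 fell, against 2.53% of all genes called higher and 4.7% called lower. The 4 are mRNAs of the forward strand: mt-Nd4, mt-Cytb, mt-Nd1 and mt-Nd5. For mt-Nd4 the libraries stood at 7507, 3831 and 5657 CPM with sgMed12 and at 3421, 2861 and 3256 CPM with sgControl (0.78, SE 0.15, limma adjusted p = 0.0046). For mt-Cytb they stood at 4704, 2553 and 3527 CPM (0.74, SE 0.15, limma adjusted p = 0.0046). In both genes library 1 was highest, library 2 was near the controls, and no sgMed12 value overlapped a control value.

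The values of mt-Nd1 were 7147, 3955 and 5461 CPM with sgMed12 (0.66, SE 0.14, limma adjusted p = 0.0094). Those of mt-Nd5 were 1883, 1077 and 1457 CPM against 1041, 1004 and 1015 CPM (0.49, SE 0.13, limma adjusted p = 0.024). The order of the 3 libraries was the same as for mt-Nd4. The second library lay just above the highest control in mt-Nd5.

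The rRNAs and the remaining forward-strand mRNAs had positive fitted differences that did not pass. For mt-Rnr2 the libraries were at 69447, 44186 and 58482 CPM with sgMed12 and at 37796, 42928 and 40698 CPM with sgControl (0.48, SE 0.19, limma adjusted p = 0.13). For mt-Rnr1 they were at 33079.7, 21473 and 27606 CPM against 18949, 21647 and 20666 CPM (0.40, SE 0.17, limma adjusted p = 0.14). The range of mt-Rnr1 overlapped the controls, that of mt-Rnr2 did not. Without library 1 the differences were 0.33 and 0.26 (limma adjusted p = 0.37 and 0.42), and without library 2 they were 0.66 and 0.57 and passed (limma adjusted p = 0.00014 and 0.00018). The fitted difference was 0.40 for mt-Nd2, 0.24 for mt-Co1 and 0.36 for mt-Nd3 (limma adjusted p = 0.13, 0.24 and 0.43).

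The calls with sgMed12 depended on single libraries. Without library 1 the differences were 0.55 for mt-Nd4, 0.52 for mt-Cytb and 0.46 for mt-Nd1, all still called (limma adjusted p = 0.017, 0.018 and 0.044), and mt-Nd5 was at 0.30 and lost its call (limma adjusted p = 0.15). Without library 3, mt-Nd4 and mt-Cytb were still called (0.76 and 0.73, limma adjusted p = 0.037 and 0.033), and mt-Nd1 and mt-Nd5 were not. Without library 2, 9 members rose, while 2829 of all 13104 genes tested were called in either direction, against 952 of 13177 with all libraries. The call of mt-Nd5 was also lost without any 1 of the sgControl libraries. When only the 6 libraries compared entered the fit, 0 members rose and 0 fell, and just 24 of all 13177 genes were called in either direction. The edgeR quasi-likelihood test called 7 members higher, and 788 of all 13177 genes in either direction.

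Other values were read in the same libraries. The nuclear rRNA gene CT010467.1 took 10.8% to 11.7% of reads with sgMed12, 9.51% to 11.2% with sgCTCF, 8.84% to 10.3% with sgCbfb and 7.87% to 8.94% with sgControl, so each sgMed12 and sgCTCF library was above each control. Of the 12 OP9 stroma markers, 8 had a read in sgMed12 libraries, and their sum was 44.6, 11.6 and 22.7 CPM in libraries 1 to 3, with Col3a1, Dcn, Vcam1 and Postn at 0. With sgCTCF 8 had a read and the sum was 16.6 to 29.5 CPM. In sgControl libraries 7 had a read and the sum was 31.4, 5.02 and 7.06 CPM, so the sums of sgMed12 and sgCTCF overlapped those of sgControl. With sgCbfb 7 had a read and the sum was 2.02 to 15.2 CPM. The part of CT010467.1 or of stroma RNA in the mitochondrial values was not tested.

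**Figure D3:**
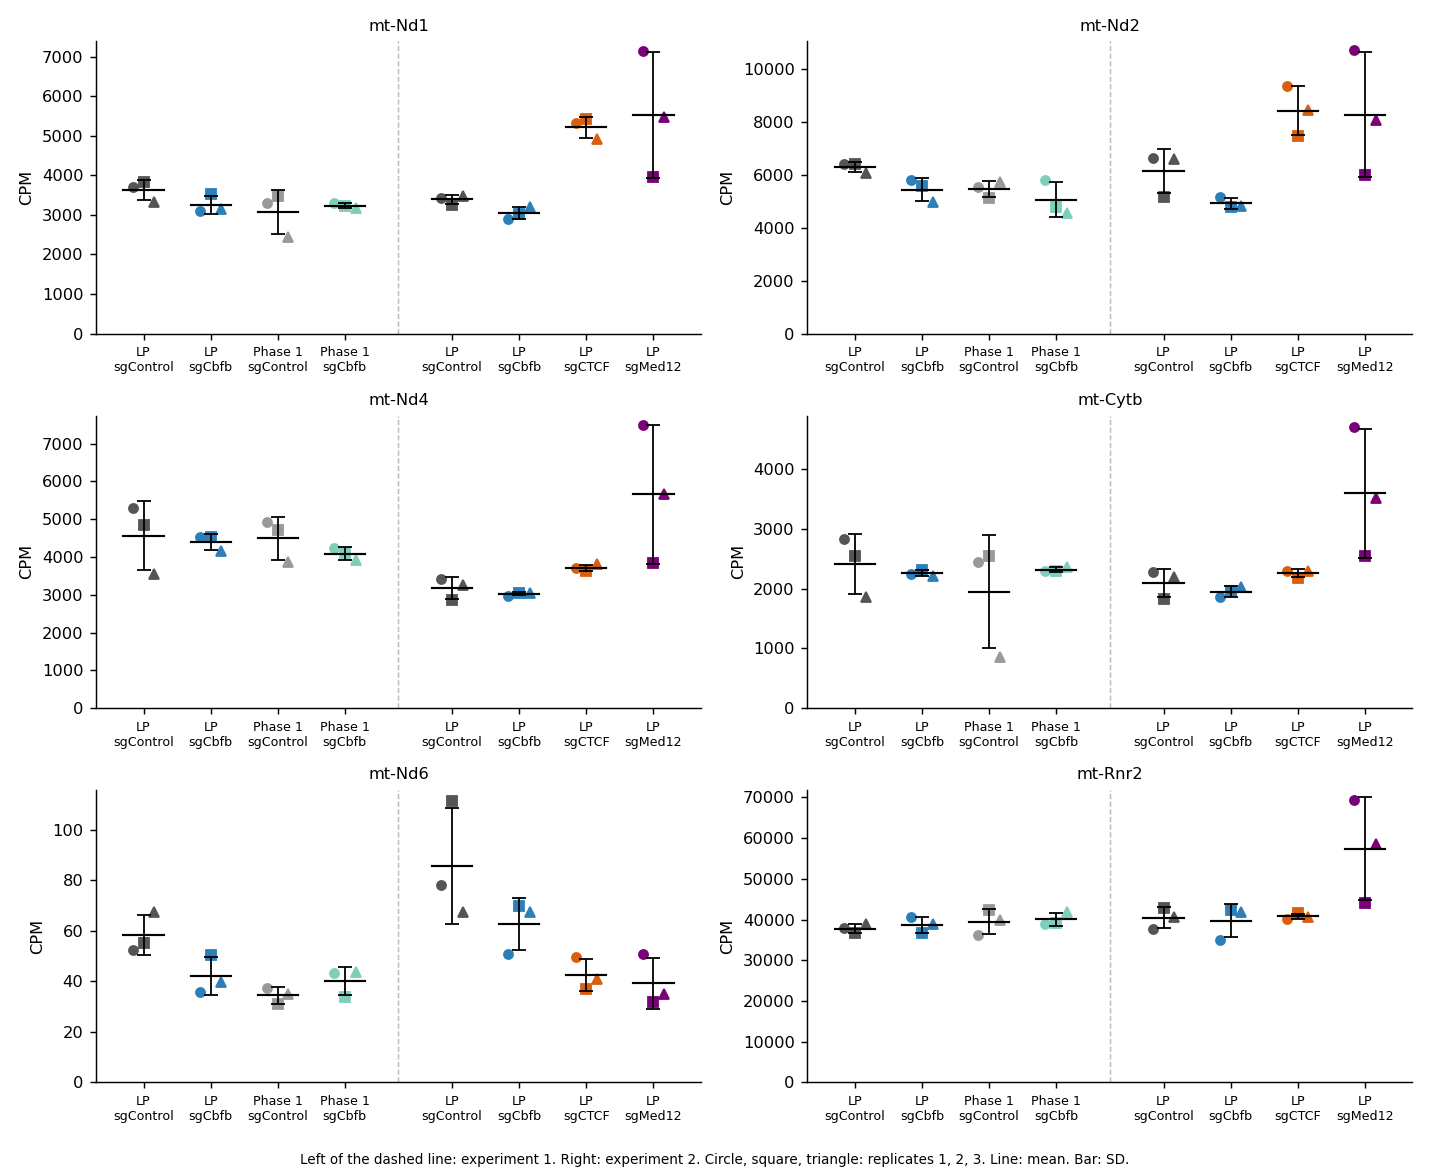
CPM of 5 mitochondrial mRNAs and of mt-Rnr2 in each library. Points are libraries, lines are means and bars are SDs (n = 3). With sgCTCF mt-Nd1 is at 4918 to 5416 CPM above all controls, with sgMed12 the first library is highest in every forward-strand gene shown, and mt-Nd6 is below the controls of experiment 2 in both groups.

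In contrast with the other mRNAs, mt-Nd6 fell with sgMed12. It was at 50.9, 32.0 and 34.9 CPM against 78.1, 112 and 67.7 CPM, with no overlap (-1.11, SE 0.18, limma adjusted p = 0.0012), and by the thresholds of the study it was again the 1 member called, against 0.364% of all genes called lower. The fold of means was 2.19, and 1.86 without sgControl library 2, which ends that call. Without library 1 the difference was -1.30 and still called (limma adjusted p = 8.5e-05). As a percentage of mt-Nd5, its tail-to-tail neighbour, mt-Nd6 was 2.70%, 2.97% and 2.40% with sgMed12, 4.35%, 3.39% and 3.55% with sgCTCF, 5.83%, 7.41% and 7.15% with sgCbfb, and 7.5%, 11.1% and 6.67% with sgControl. The sgMed12 and sgCTCF libraries lay below the other 6. The glutamine tRNA mt-Tq, also of the reverse strand, fell too. It was at 22.6, 22.1 and 15.9 CPM against 31.1, 34.85 and 37.5 CPM (-0.76, SE 0.20, limma adjusted p = 0.024), and its call was lost in 6 of 21 alternatives, among them without sgControl library 2 or 3 or sgMed12 library 3.

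**Figure D4:**
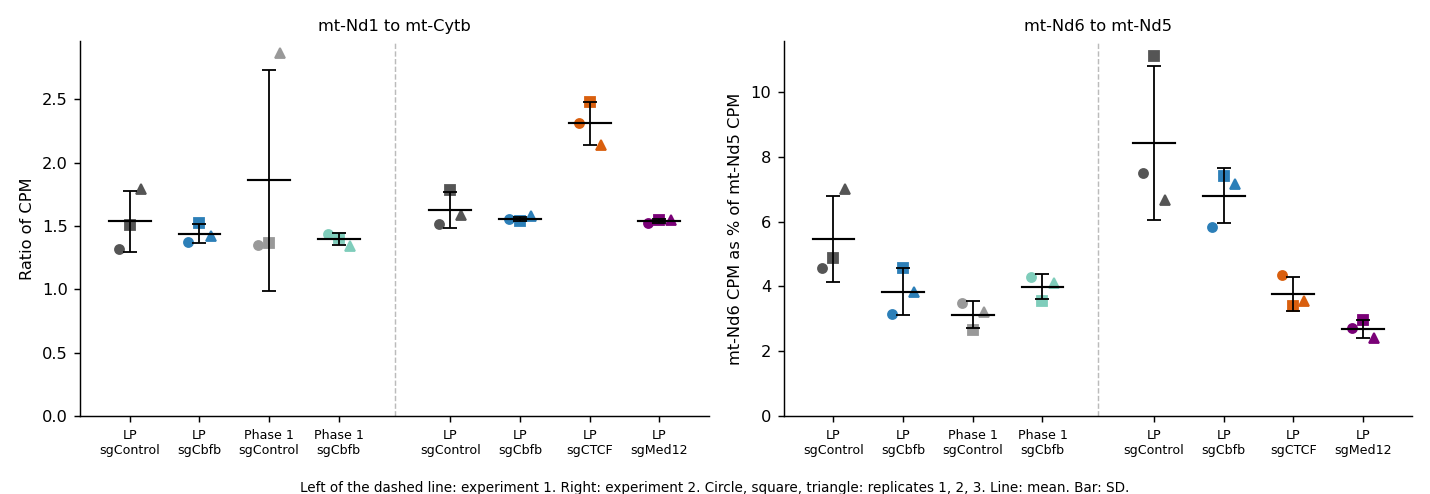
Left: ratio of mt-Nd1 to mt-Cytb CPM in each library. Right: mt-Nd6 CPM as a percent of mt-Nd5 CPM. Points are libraries, lines are means and bars are SDs (n = 3). The 3 sgCTCF libraries have ratios of 2.14 to 2.48 and stand above the others of experiment 2, and the percent of mt-Nd6 is 2.40 to 2.97 with sgMed12 and 3.39 to 4.35 with sgCTCF against 6.67 to 11.1 with sgControl.

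A split of the 24 tested members by strand was made after these values were seen and is given without a test. The reverse strand held 6 of them: mt-Nd6 and the tRNAs mt-Tq, mt-Ta, mt-Tc, mt-Te and mt-Tp. Strand here is that of the annotated gene. Whether reads were counted by strand is not given in the sources used here, so the reads need not come from that strand. With sgMed12 all 6 had fitted differences below 0, with a median of -0.73, and the 18 forward-strand members had a median of 0.22, while the median over all genes tested was -0.02. The split mixes strand with RNA class, since 5 of the 6 are tRNAs. Of the 14 tRNAs of both strands 13 were below 0 with sgMed12 (median -0.51), and the 8 forward-strand members below 0 were all tRNAs. With sgCTCF 10 of the 14 tRNAs were below 0 (median -0.20). By strand the sgCTCF medians were -0.66 and 0.06, again with all 6 below 0. The 6 were below 0 with sgCbfb as well, with medians of -0.42 and -0.12, and none of them passed. The 3 comparisons share the sgControl libraries, so the 3 sets of values are not independent, and the highest mt-Nd6 value of the experiment, 112 CPM, was in sgControl library 2. In experiment 1 the reverse-strand median was -0.10 with sgCbfb in LPs and -0.11 in Phase 1 cells, beside -0.03 and -0.13 for the forward strand.

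**Figure D5:**
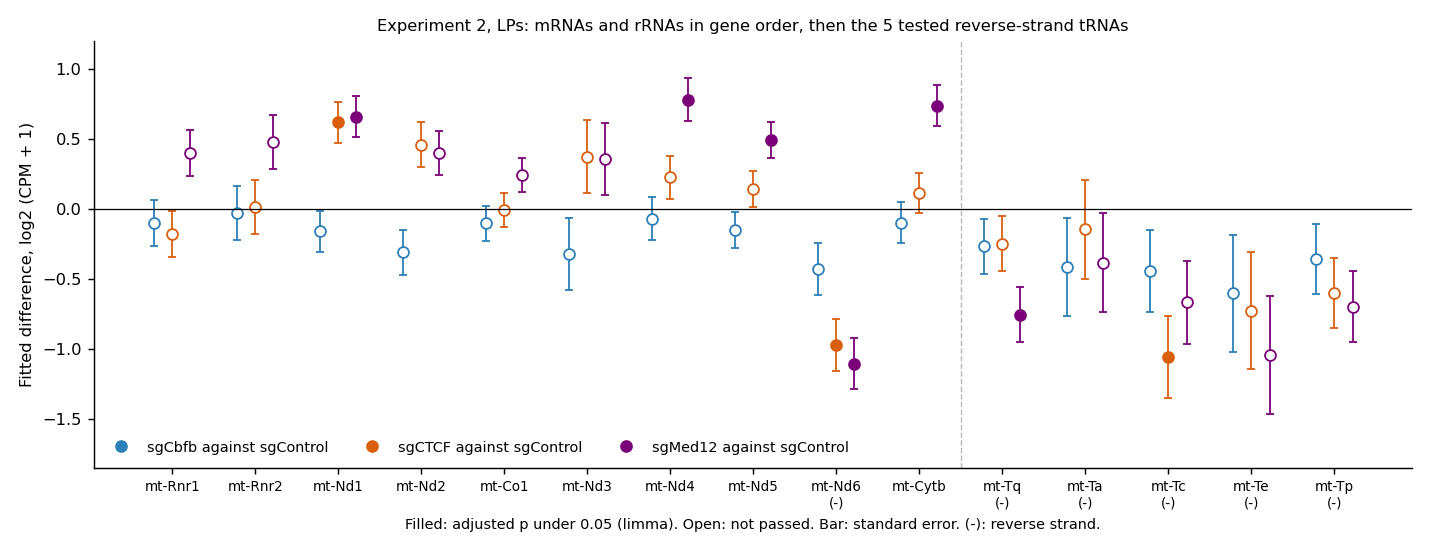
Fitted differences from sgControl in LPs of experiment 2, log2 (CPM + 1), with standard errors, for the 10 mRNAs and rRNAs tested in gene order and the 5 tested tRNAs of the reverse strand. Filled points passed limma at an adjusted p below 0.05. Forward-strand tRNAs are not drawn, and 8 of them were below 0 with sgMed12. Of the genes drawn, the forward-strand mRNAs and rRNAs lie above 0 with sgMed12 and the reverse-strand genes below, with sgCTCF mt-Nd1 is at 0.62 and mt-Nd6 at -0.97, and no point of sgCbfb is filled.

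The differences between the 3 targeted groups were tested directly. Between sgCTCF and sgCbfb mt-Nd1 was higher with sgCTCF by 0.78 (SE 0.14, limma adjusted p = 0.00022) and mt-Nd2 by 0.77 (SE 0.16, limma adjusted p = 0.00076), and mt-Nd6 was lower by a fitted -0.55 (SE 0.18, limma adjusted p = 0.034). Of all genes, 11.5% were called higher and 10.9% lower in this comparison. Both higher calls were kept in all 21 alternatives, and that of mt-Nd6 was lost in 5.

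Between sgMed12 and sgCbfb 6 members were higher with sgMed12 and 1 was lower, against 7.03% and 9.77% of all genes. They were mt-Cytb (0.84), mt-Nd4 (0.85), mt-Nd1 (0.82), mt-Nd2 (0.71), mt-Nd5 (0.64) and mt-Rnr1 (0.50), with limma adjusted p from 0.00016 to 0.037, and mt-Nd6 was lower (-0.68, limma adjusted p = 0.011). The calls of the 5 higher mRNAs held in all 21 alternatives, while that of mt-Rnr1 was lost in 12 and that of mt-Nd6 in 3.

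Between sgMed12 and sgCTCF mt-Cytb was higher with sgMed12 by 0.62 (SE 0.15, limma adjusted p = 0.0035), mt-Nd4 by 0.56 (SE 0.15, limma adjusted p = 0.013) and mt-Rnr1 by 0.58 (SE 0.17, limma adjusted p = 0.015), against 8.09% of all genes called higher. Of these only mt-Cytb held in all 21 alternatives, and without sgMed12 library 1 or 3 it was the 1 member called higher. The pair mt-Nd1 and mt-Nd2 was at 0.04 (SE 0.14) and -0.06 (SE 0.16), with overlapping values (limma adjusted p = 0.87 and 0.83). The isoleucine tRNA mt-Ti was lower with sgMed12, at 6.22, 6.10 and 5.11 CPM against 13.7, 11.7 and 9.47 CPM (-0.88, SE 0.31, limma adjusted p = 0.046), against 11.9% of all genes called lower. Its fold of means was at the edge of the threshold of the study, which called 2.31% of all genes lower, and its call at an adjusted p was lost in 13 of 21 alternatives. The value of mt-Nd6 was 39.2 ± 10.2 CPM with sgMed12 and 42.5 ± 6.5 CPM with sgCTCF (-0.13, SE 0.18, limma adjusted p = 0.66).

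In experiment 1 the questions were what sgCbfb does in LPs and in Phase 1 cells and what differs between the stages. In LPs 0 of 23 members passed between sgCbfb and sgControl, against 2.85% of all genes in either direction, and in Phase 1 cells 0 did, against 5.97%. At an unadjusted p below 0.05 there were 2 in LPs, against 11.8% of all genes, and 0 in Phase 1 cells, against 17.8%, and edgeR's quasi-likelihood test called 0 in both. The 2 in LPs were mt-Nd3, at 0 to 1.72 CPM against 2.57 to 4.95 CPM, and mt-Nd6, at 36.0, 50.5 and 40.0 CPM against 52.5, 55.1 and 67.4 CPM (limma adjusted p = 0.14 and 0.40). Neither overlapped, and mt-Nd3 rests on a handful of reads. The difference between the stages in the response to sgCbfb was tested as an interaction, where 0 of 23 members passed, against 1.27% of all genes, and 2 had an unadjusted p below 0.05, against 10.3%. The edgeR test called 0.

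Between Phase 1 cells and LPs with sgControl 1 member, mt-Nd6, fell, against 3.23% of all genes called lower and 3.26% called higher. It stood at 37.4, 31.0 and 35.2 CPM in Phase 1 cells and at 52.5, 55.1 and 67.4 CPM in LPs (-0.74, SE 0.22, limma adjusted p = 0.045). The groups did not overlap, but the adjusted p was next to the threshold and the call was lost in 14 of 21 alternatives, edgeR among them. With sgCbfb the stages had 43.4, 33.9 and 43.6 CPM against 36.0, 50.5 and 40.0 CPM (-0.06, SE 0.22, limma adjusted p = 0.97), and 0 of 23 members passed, against 2.24% of all genes. At an unadjusted p below 0.05 there was 1, against 12.1% of all genes, and edgeR called 0.

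No abundant member passed between the stages, and 7 of the 8 mRNAs tested had fitted differences below 0, with a median of -0.23 beside -0.07 over all genes. In Phase 1 cells with sgControl mt-Rnr2 was at 39529 ± 3107 CPM against 37793 ± 1137 CPM in LPs (0.06, SE 0.10, limma adjusted p = 0.80), mt-Nd4 at 4494 ± 564 against 4568 ± 909 CPM (-0.01, SE 0.12, limma adjusted p = 0.98), and mt-Nd2 at 5467 ± 296 against 6289 ± 186 CPM (-0.20, SE 0.10, limma adjusted p = 0.28). The values of mt-Nd2 did not overlap. For mt-Nd1 the means were 3072 ± 554 and 3629 ± 259 CPM (-0.25, SE 0.11, limma adjusted p = 0.21). A single library set the mean of mt-Cytb (-0.44, SE 0.25, limma adjusted p = 0.35). The Phase 1 sgControl libraries were at 2442, 2553 and 853 CPM, and the other 9 libraries of the experiment were between 1861 and 2827 CPM. That library is the one that stood apart over all genes. It was also lowest in mt-Nd1 with 2441 CPM, while its mt-Nd2, 5722 CPM, was inside the range of the others. Without it mt-Cytb was at 0.07, mt-Nd1 at -0.10 and mt-Nd6 at -0.75, the last still called (limma adjusted p = 0.80, 0.64 and 0.049).

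The nuclear genes that transcribe, process and partner these RNAs were read as 5 lists, described by counts and medians. In the list of mtDNA transcription and replication, 17 of 18 genes were tested. Their medians were -0.17 with sgCTCF, 0.01 with sgMed12 and -0.01 with sgCbfb in experiment 2, beside -0.02, -0.02 and -0.01 over all genes. Of all genes 6.13% were called higher and 4.2% lower with sgCTCF, and 2.53% and 4.7% with sgMed12. With sgCbfb 12.5% were called in either direction in experiment 2, and 5.97% in Phase 1 cells. None of the 17 passed with sgCTCF or sgMed12, and Polg, the mtDNA polymerase, was the 1 gene that rose with sgCbfb, both in LPs of experiment 2 (37.8 ± 3.3 against 24.9 ± 1.1 CPM, 0.58, limma adjusted p = 0.017) and in Phase 1 cells (38.7 ± 6.8 against 20.3 ± 8.5 CPM, 0.95, limma adjusted p = 0.045). The polymerase Polrmt was at 20.7 ± 3.4 CPM with sgMed12, 13.9 ± 2.1 with sgCTCF and 16.6 ± 2.9 with sgControl, and Tfam, which packages and activates mtDNA, at 67.6 ± 3.7, 69.0 ± 6.3 and 73.8 ± 2.4 CPM, with no call. The transcription factor Tfb2m was at 6.0 ± 2.32, 6.55 ± 1.67 and 7.68 ± 2.87 CPM, and the elongation factor Tefm at 5.91 ± 0.70, 6.13 ± 0.82 and 7.29 ± 0.34 CPM, with no call.

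Of 31 genes of RNA maturation and decay 1 fell with sgMed12, against 4.7% of all genes called lower, and 0 passed with sgCTCF. The medians were -0.05 and -0.23, beside -0.02 over all genes in both. The gene that fell was Slirp, which stabilises mitochondrial mRNAs together with Lrpprc (67.4 ± 5.1 against 87.7 ± 3.2 CPM, -0.38, limma adjusted p = 0.047). Its call was lost without sgMed12 library 1 or 3 (limma adjusted p = 0.087 and 0.20). Its partner Lrpprc was at 87.4 ± 18.7 CPM with sgMed12 and 82.2 ± 10.1 CPM with sgCTCF against 110 ± 16 CPM with sgControl (limma adjusted p = 0.15 and 0.065). With sgCbfb in experiment 2 1 of the 31 rose and 2 fell, against 12.5% of all genes called in either direction, and the median was 0.035 beside -0.011 over all genes. Prorp, the nuclease that cuts tRNA 5′ ends, rose (0.64, limma adjusted p = 0.021), and Grsf1, a protein of mitochondrial RNA granules, and Rexo2, an exonuclease for short RNAs, fell (-0.46 and -0.44, limma adjusted p = 0.013 and 0.014).

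Of 8 tested nuclear regulators 2 fell with sgCTCF, 1 rose and 1 fell with sgMed12, and 1 rose with sgCbfb in experiment 2. Of all genes 4.2% were called lower with sgCTCF, 2.53% higher and 4.7% lower with sgMed12, and 12.5% in either direction with sgCbfb. The medians were -0.18, -0.22 and -0.03, beside -0.02, -0.02 and -0.01 over all genes. Myc fell with sgCTCF (15.7 ± 5.8 against 36.8 ± 5.1 CPM, -1.23, limma adjusted p = 0.00039) and rose with sgCbfb (66.5 ± 18.6 CPM, 0.81, limma adjusted p = 0.012). The coactivator Ppargc1b fell with sgCTCF (8.28 ± 1.69 against 17.2 ± 2.7 CPM, -0.98, limma adjusted p = 0.0059). With sgMed12 Nrf1, an activator of nuclear genes for respiration, rose (0.43, limma adjusted p = 0.038) and Yy1 fell (-0.38, limma adjusted p = 0.029). Both calls were lost without sgMed12 library 1 (limma adjusted p = 0.12 and 0.17) and also without library 3 (limma adjusted p = 0.14 and 0.092). Of 77 mitochondrial ribosomal proteins, 1 rose and 2 fell with sgMed12, and 1 rose and 1 fell with sgCTCF, fewer in share than the 2.53% and 4.7%, and the 6.13% and 4.2%, of all genes.

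The nuclear-encoded respiratory chain subunits went the other way from the forward-strand mitochondrial mRNAs with sgMed12: 17 of 79 fell and 1 rose, against 4.7% and 2.53% of all genes, and their median was -0.26 beside -0.02 over all genes. The median was -0.15 when library totals left out the mitochondrial genes and CT010467.1, -0.18 without library 1 and -0.41 without library 2. Among those that fell were Cox8a (154 ± 48 against 264 ± 7 CPM, -0.82, limma adjusted p = 0.0011) and the muscle-type subunit Cox6a2 (305 ± 25 against 534 ± 86 CPM, -0.80, limma adjusted p = 0.00015) of complex IV. Without sgMed12 library 1 or 3 the count that fell was 3, without library 2 it was 47, and without sgControl library 1, 2 or 3 it was 4, 7 or 6. It was 8 with those other totals, and 1 when only the 6 libraries compared entered the fit. The number of all genes called in either direction moved too, from 952 in the main fit. It was 254, 187 and 2829 without sgMed12 library 1, 3 and 2, and 396, 295 and 376 without sgControl library 1, 2 and 3. With those other totals it was 851, and with the compared groups alone 24. With sgCTCF 1 of 79 fell, Cox6a2 (331 ± 8 CPM, -0.68, limma adjusted p = 0.00015). With sgCbfb 2 fell, Cox6a2 to 81.2 ± 5.6 CPM (-2.69, limma adjusted p = 1.5e-15) and Cox8a to 189 ± 13 CPM (-0.48, limma adjusted p = 0.019), both against the same controls. The list median was also below that of all genes in these groups, -0.11 beside -0.02 with sgCTCF and -0.13 beside -0.01 with sgCbfb. Compared directly with sgCbfb, 6 of 79 were lower with sgMed12 and 1 was higher, against 9.77% and 7.03% of all genes. The median of that comparison was -0.10, beside -0.02 over all genes. Cox6a2 fell with sgCbfb also in LPs of experiment 1, from 589 ± 43 to 171 ± 12 CPM (-1.78, limma adjusted p = 2.2e-08).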

How the data were processed

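QuantSeq 3′ libraries of 24 samples in 8 groups were used, grouped by the sample labels. The authors trimmed reads with fastp, aligned them with STAR to mm10 (per the labels and methods, versions not given in the sources used here) and deposited 1 CPM value per gene and library, in a column they name TPM. Low values were whole multiples of 1 read's worth within 0.05 read in 99.99% to 100% of cases, so reads were recovered. How reads were counted, with or without strand, is not given in the sources used here.

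Differences were tested with limma 3.58.1 (R 4.3.3) on log2 (CPM + 1), over genes with at least 1 CPM in 3 libraries, all 4 groups of an experiment in the fit, trended empirical Bayes, Benjamini-Hochberg adjustment. The fit was also run on simulated data with the same spread in all groups, which cannot speak for groups of unequal spread. The experiments were normalized and tested apart. On recovered reads, edgeR 4.0.16 was an alternative. Others were pseudocounts of 0.1 and 5, no filter, other scalings, the compared groups alone, a replicate block and leaving out each library. 8 comparisons were set from the design and 3 between targeted groups were added after the data were seen. All mt- genes could be named. From nuclear lists at most 3 genes per list and comparison, the largest differences among those that passed without overlap, and 6 fixed genes (Tfam, Polrmt, Tfb2m, Tefm, Lrpprc, Slirp) were named. Members and lists were chosen with earlier results of these data known. Sequences and positions are from GENCODE M21 (GRCm38). An authors' mean column of sgControl was not used.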

Additional observations from a re-analysis of the deposited data

How the results depend on the processing

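Without a filter on low values 0 members fell in Phase 1 cells against LPs with sgControl (1 with the filter), 0 rose and 1 fell with sgCTCF (1 and 2), 1 rose and 1 fell with sgMed12 (4 and 2), 0 fell between sgCTCF and sgCbfb (1), and 1 was higher and 0 lower between sgMed12 and sgCTCF (3 and 1). A fit with only the compared groups takes the spread from those groups alone. In it the stage comparison lost its 1 call (0), 3 rose with sgCTCF, and 0 rose and 0 fell with sgMed12. In the same fit 7 were higher between sgCTCF and sgCbfb against 2, and 1 was higher between sgMed12 and sgCTCF. The edgeR test called 0 lower between the stages, 2 higher with sgCTCF, 7 higher with sgMed12 and 5 higher between sgMed12 and sgCTCF. With library totals that left out the mitochondrial genes and CT010467.1, an alternative chosen after the data were seen, 0 fell between the stages, 1 fell with sgMed12, and 5 were higher and 0 lower between sgMed12 and sgCTCF. The last comparison also had 0 lower with a pseudocount of 0.1, with median-of-ratios scaling and with totals without mitochondrial genes, the stage comparison had 0 lower with median-of-ratios scaling, and sgMed12 against sgCbfb had 2 lower, not 1, with a pseudocount of 0.1. The number of all genes called in either direction moved too. With sgMed12 against sgControl it was 952 in the main fit, 325 without the filter, 24 with only the compared groups and 788 with edgeR. With only the compared groups it rose from 1361 to 1942 with sgCTCF and from 2941 to 3598 between sgCTCF and sgCbfb. It fell from 858 to 401 between the stages with sgControl and from 2635 to 1802 between sgMed12 and sgCTCF. Without the filter these counts were 1060, 2664, 733 and 2044, in the same order. The cause of these changes was not tested. No called value changed sign. The median difference of all genes moved by less than 0.1 under every scaling.

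Leaving out 1 library at a time gave 0 to 1 members lower between the stages with sgControl and 0 to 1 lower with sgCbfb in experiment 2. With sgCTCF 1 to 2 were higher and 1 to 3 lower (2 higher without sgControl library 2 or sgMed12 library 1 or 2, and 1 lower without sgControl library 2 or 3 or sgCTCF library 1 or 2). With sgMed12 2 to 9 were higher (2 without its library 3 and 9 without its library 2) and 1 to 3 lower (1 without sgControl library 2 or 3 or sgMed12 library 3). Between sgCTCF and sgCbfb 2 to 6 were higher and 0 to 1 lower, between sgMed12 and sgCbfb 5 to 9 and 0 to 4, and between sgMed12 and sgCTCF 1 to 7 and 0 to 2. Leaving out a library of a group that is not compared changes these counts through the shared spread. Over all genes, 187 were called with sgMed12 without its library 3 and 2829 without its library 2, against 952 with all libraries. The all-gene counts ranged from 2195 to 3553 between sgCTCF and sgCbfb (2941 with all libraries). They ranged from 1573 to 3429 between sgMed12 and sgCbfb (2215) and from 1649 to 4035 between sgMed12 and sgCTCF (2635). With sgCTCF they were 782 to 1949 (1361), with sgCbfb in experiment 2 1162 to 2119 (1644), and between the stages with sgControl 549 to 1007 (858).

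The mitochondrial share counted from mRNAs alone differed by -0.202 percentage points between the stages with sgControl (0.120 with all members), -0.158 between sgCbfb and sgControl in LPs of experiment 1 (0.068), both with a change of sign, 0.488 between sgCTCF and sgControl (0.281), 0.892 between sgMed12 and sgControl (3.27), 1.10 between sgMed12 and sgCbfb (3.69) and 0.404 between sgMed12 and sgCTCF (2.99). Without sgMed12 library 1 its share was 1.99 percentage points above sgControl, and without library 2 it was 4.6.

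Deviations of libraries with the same number were at most weakly correlated (from -0.063 to 0.111), so the numbers were not taken as pairs. In experiment 2 each targeted library correlated more with the sgControl library of its number than with the others. With sgCbfb the values were 0.044, 0.11 and 0.111, against at most -0.002, -0.009 and -0.037 for other numbers. Between sgMed12 and sgCbfb the order was the reverse. With the replicate number as a block 2 members rose with sgCTCF in place of 1, and no other count of members changed by over 1.5 times. Low members are limited by depth: 13 of the 37 had at most 3 reads in every library.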

Other observations

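Some genes of the nuclear lists passed in comparisons not described above. Cox6a2 was lower in Phase 1 cells than in LPs with sgControl (196 ± 30 against 589 ± 43 CPM, -1.59, limma adjusted p = 4.4e-08), and its response to sgCbfb was smaller in Phase 1 cells, where it fell by 0.56 (limma adjusted p = 0.014), with an interaction of 1.22 (limma adjusted p = 0.0012). In the same stage comparison the iron-sulfur subunit of complex III, Uqcrfs1, fell (-0.87, limma adjusted p = 0.041), the ATP synthase beta subunit Atp5b fell (-0.36, limma adjusted p = 0.047) and Rexo2 rose (0.64, limma adjusted p = 0.036). Without the third Phase 1 sgControl library Uqcrfs1 and Atp5b lost their calls (limma adjusted p = 0.12 and 0.096). With sgCTCF the mitochondrial ribosomal protein Mrps16 rose (108 ± 8 against 67.8 ± 1.7 CPM, 0.67, limma adjusted p = 0.00032) and Mrps2 fell (26.4 ± 1.2 against 52.7 ± 7.0 CPM, -0.96, limma adjusted p = 0.00011). Between sgCTCF and sgCbfb 7 of 79 respiratory chain subunits were higher with sgCTCF and 0 were lower, against 11.5% and 10.9% of all genes, Cox6a2 and Sdhb among the 7. Between sgMed12 and sgCTCF 13 were lower with sgMed12 and 1 was higher, against 11.9% and 8.09% of all genes.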
